A study of Homo sapiens with 8 samples.

Results

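The probe sets described here are the bright features of the second Affymetrix array type that carry no gene symbol in the annotation given for that array. A probe set was a member if it was not a control, had no symbol, and had a mean linear intensity of at least 1000 over the 2 DMSO arrays. Of 22577 probe sets other than controls, 8783 had no symbol, and 368 of these (4.19%) met the minimum. Among the 13582 probe sets with 1 symbol, 2876 (21.2%) reached the same level. Each of the 8783 was missing from the annotation table, and a probe set missing from it is unnamed here, not without a gene. The members are therefore given by their identifiers, with no gene name and no role. One member, an _x_at set whose identifier labels it on the plots, was put forward for its low values with pentamidine and is called the lead _x_at set.

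The cells were 786-O, an established human clear cell renal carcinoma line. One group had received 25 μM pentamidine, a drug given against Pneumocystis and several protozoa, for 6 h, and the other the vehicle DMSO for 6 h. Both treatments were represented by 2 arrays on each array type, which the labels call biological duplicates, and the samples whose replicate number carries the letter b were on the second type. The labels do not say whether the lettered samples were the same RNA as the unlettered ones, so the array types were never pooled.

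An array of this kind measures a transcript with a set of short probes, whose signals are summarised to 1 intensity. The suffix of an identifier tells what its probes can bind. A plain _at set was designed against 1 transcript or a group of transcripts of 1 locus, an _s_at set holds probes shared by several transcripts, and an _x_at set holds probes that may also hybridise to unrelated sequences. Intensity also depends on the probes themselves, so levels are compared below between arrays for 1 probe set and not between probe sets, except as ranks that describe how bright a feature was.

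The DMSO means of the members ran from 1001 to 66213, with a median of 1966. They were crowded toward the minimum, with 190 members from 1000 to 2000, 118 from 2000 to 5000 and 60 at 5000 or more. Plain _at sets made up 295 members (80.2%), _s_at sets 52 (14.1%) and _x_at sets 21 (5.71%). Bright probe sets with 1 symbol held fewer _at sets (67.6%) and more _s_at sets (26.1%), while probe sets without symbol under 1000 were _at sets in 90.2% and _s_at sets in 3.47%. The bright unnamed probe sets thus lay between both in their make-up, and the share of _x_at sets was near 6% in all of them (6.33% and 6.3%).

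The minimum of 1000 cut through a continuous range. The members just inside it were 230748_at with a DMSO mean of 1001, 228661_s_at with 1005 and 231844_at with 1007. Just outside were 239376_at with 998.7, 229704_at with 998.2 and 226795_at with 996.9. Both DMSO arrays reached 1000 in 323 of the 368 members, and 35 members had a pentamidine mean under 1000.

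The array facts that touch these values were as follows. With 2% of values trimmed from either end, each array of the second type averaged 500.1, so the arrays shared a trimmed mean. Their medians were less alike, 143.0 and 134.7 with DMSO and 164.4 and 138.9 with pentamidine. The 3′ to 5′ signal ratio of the control transcripts, a measure of RNA integrity and labelling, was lower on both pentamidine arrays of the second type for ACTB (1.47 and 1.27 with DMSO, 1.23 and 1.21 with pentamidine), GAPDH (0.843 and 0.806 against 0.716 and 0.677) and ISGF3A (4.70 and 2.73 against 2.15 and 2.52). The 3′ probe set of 18S ribosomal RNA read 745 and 1526 with DMSO and 3035 and 2876 with pentamidine, and the 5′ probe set of 28S ribosomal RNA read 2121 and 4361 against 4710 and 4707. DMSO array 1 was the lowest in both. Of the 6 probe sets of these RNAs, 3 lay above DMSO on both pentamidine arrays and 3 overlapped, among them the 28S middle set (3486 and 3949 against 5061 and 3816) and the 28S 3′ set, where pentamidine array 2 was the lowest. The part of these shifts in the members' values was not tested. On the first array type, 6 of the 7 listed markers of the line (PAX8, EPAS1, VIM, KRT18, KRT8 and NNMT) had a mean of 500 or more, PAX2 lay between 36.4 and 87.2, and CA9 was not listed. None of the 4 leukocyte, 3 endothelial, 3 stromal and 2 erythroid markers listed reached 500. Their highest single value was 72.8, and their summed levels ran from 35.0 to 67.0, 8.12 to 98.5, 70.6 to 149 and 5.06 to 41.1 over the arrays.

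Most bright unnamed probe sets lay close to their DMSO level after pentamidine. Differences are on the scale of log2(value + 16), pentamidine minus DMSO. In RNA of a whole culture, fewer cells with a transcript and less of it per cell cannot be told apart. Their median was -0.05, the middle 50% lay between -0.23 and 0.12, and the whole range was -1.61 to 1.04. Of the 368, 351 (95.4%) differed by less than 1.5-fold, 4 (1.09%) were at least 1.5-fold above DMSO and 13 (3.53%) at least 1.5-fold below. Over all 15804 probe sets kept on this array type the shares were 19.8% above and 16.8% below, 36.6% in all, dim probe sets included. Bright probe sets with 1 symbol are the nearer comparison, and there the shares were 1.01% above and 2.33% below, with a median of -0.04. The members' counts were thus far under those of all probe sets and close to those of named probe sets of the same brightness.

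**Figure D1:**
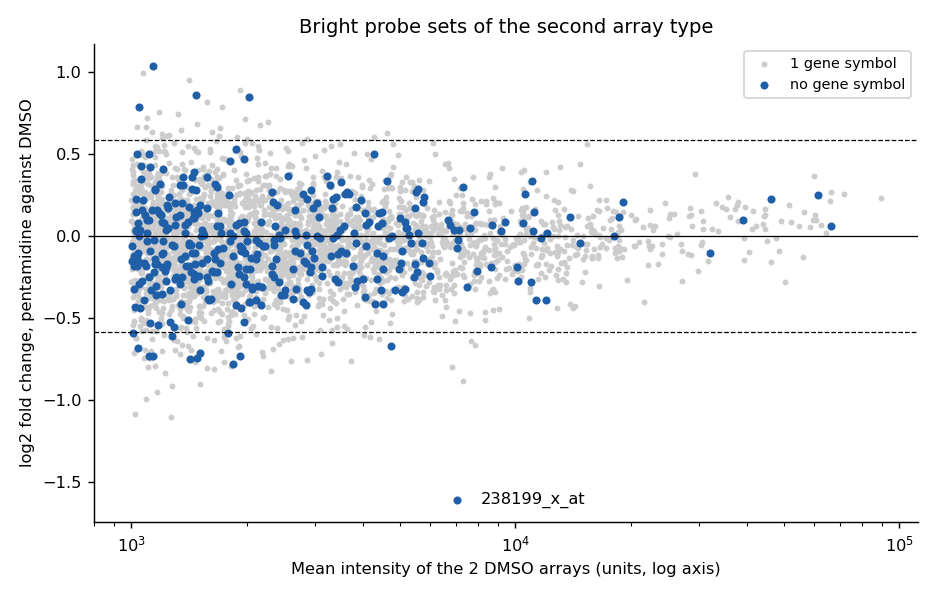
The log2 difference between pentamidine and DMSO (vertical axis) is plotted against the mean DMSO intensity (horizontal axis, log scale) for the bright unnamed probe sets and for bright probe sets with 1 symbol. Most points lie within 1.5-fold of 0, and the lead _x_at set, labelled with its identifier, is the lowest member at -1.61.

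No member was called by limma at an adjusted p under 0.05, nor was any probe set of the whole table (0.0% of 15804). The members' smallest adjusted p was 0.536 and 1 member had an unadjusted p under 0.05. Of all probe sets 7.04% had one, and of the bright ones with 1 symbol 0.0348%. With a prior variance that follows the level, limma called 1 member, the lead _x_at set, which was also the single call over all probe sets (0.00633%). Under that fit 38 members (10.3%) had an unadjusted p under 0.05, beside 5.1% of all probe sets and 10.2% of the bright ones with 1 symbol. The members' DMSO arrays also chose the members, so these counts describe the set and are no test of it.

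The 2 pentamidine arrays both lay above both DMSO arrays in 57 members (15.5%) and both below in 98 (26.6%). These shares were 17.4% and 16.7% over all probe sets kept, 34.2% together, and 13.9% and 25.0% over bright probe sets with 1 symbol. More members lay below than above, and so did the bright named probe sets. It depended on the scaling. Centring each array on its median moved the median of all probe sets by -0.10 and gave 23 members above and 129 below. Quantile normalization gave 63 and 89. The shares of all probe sets kept under these scalings are not given here, so these counts are no result about the members.

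The choice by DMSO level also bore on the direction. When members were instead chosen by a mean of 1000 on the pentamidine arrays, the median was 0.01, and 12 lay at least 1.5-fold above DMSO and 5 below. Chosen on all 4 arrays, the median was -0.02 with 8 above and 9 below. In total 28 unnamed probe sets reached 1000 with pentamidine only, while 35 did so with DMSO only.

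The lead _x_at set was put forward for its difference from DMSO, so its values are a description. Its intensities were 7202 and 6895 on the DMSO arrays and 3073 and 1709 on the pentamidine arrays. The means were 7048 ± 217 with DMSO and 2391 ± 965 with pentamidine (SD, n = 2 each), so the groups lay far apart while the pentamidine arrays themselves differed by 0.84 on the log2 scale. The log2 difference was -1.61 (95% interval -2.83 to -0.40), which is 3.06-fold lower with pentamidine, and its adjusted p in limma was 0.536.

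Among the 22577 probe sets, the lead _x_at set went from rank 482 by DMSO level to rank 1572 by pentamidine level. No bright probe set with 1 symbol had a difference as low, their lowest being -1.10. With the variance trend the interval narrowed to -2.02 to -1.21, and limma gave an adjusted p of 0.000202. This call rested on pentamidine array 2, the lower of the pair: without that array the difference was -1.19 and the adjusted p with the trend in limma was 0.0901. Without pentamidine array 1 the difference was -2.03 and the same adjusted p was 1.01e-05. Being an _x_at set, it may carry signal from more than 1 transcript, and which transcript it measured is not known here.

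**Figure D2:**
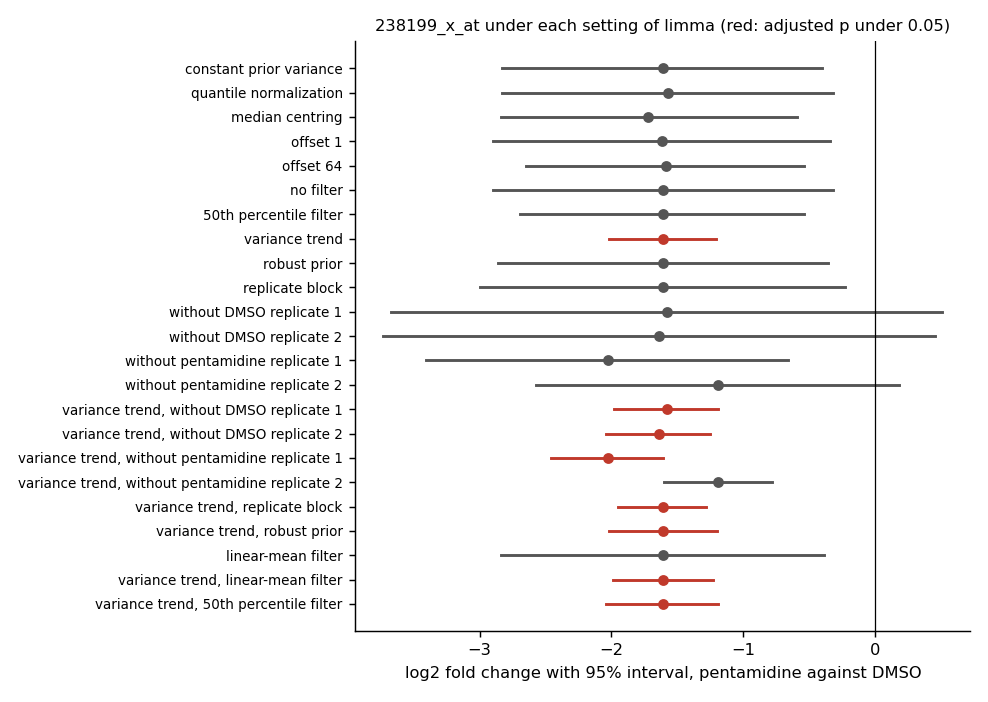
The log2 difference of the lead _x_at set (pentamidine minus DMSO, horizontal axis) under each setting of limma, with points for the estimate, bars for the 95% interval and red for an adjusted p under 0.05. The estimates stay between -2.03 and -1.19.

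After the lead _x_at set came a group of members near -0.7. 230466_s_at read 1883 and 1793 with DMSO and 1015 and 1121 with pentamidine, a difference of -0.78 (95% interval -1.62 to 0.07). Both pairs were tight, and the groups were well separated. 228692_at read 2113 and 1724 against 1050 and 1251 (-0.73), and 227364_at, which the naming rule did not pick and which was chosen after its values were seen, read 4934 and 4575 against 2833 and 3144 (-0.67, interval -1.52 to 0.18). The last was the only member at 1.5-fold or more below DMSO, apart from the lead _x_at set, whose DMSO mean exceeded 2000.

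Other low members rested on less even pairs. 242140_at read 1793 and 1176 with DMSO and 833 and 892 with pentamidine (-0.74), and 230177_at read 1310 and 916 against 699 and 611 (-0.73). 229504_at read 953 and 1319 against 644 and 696 (-0.73). In these the DMSO arrays differed more than the pentamidine arrays. In 225543_at (1327 and 1514 against 671 and 1047, difference -0.75) and 225239_at (1556 and 1454 against 1392 and 600, difference -0.71) the pentamidine arrays were the wider pair. For 225239_at pentamidine array 1 lay only just under the DMSO pair, so the difference came mainly from array 2.

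On the upper side 4 members lay at least 1.5-fold above DMSO. 238761_at read 798 and 1484 with DMSO and 2423 and 2098 with pentamidine, a difference of 1.04 (95% interval -0.22 to 2.30) and the only one of 2-fold or more upward. 231576_at read 985 and 1971 against 2023 and 3211 (0.86), where the higher DMSO array nearly met the lower pentamidine array. 222667_s_at read 1670 and 2374 against 3600 and 3612 (0.85, interval -0.13 to 1.83). Its pentamidine arrays were nearly equal, and its adjusted p in limma with the variance trend was 0.514. 231963_at read 954 and 1142 against 1758 and 1886 (0.79), with the DMSO pair 0.26 and the pentamidine pair 0.10 apart on the log2 scale.

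The next 4 among members with separate groups stayed under 1.5-fold. 226883_at read 1932 and 1804 with DMSO and 2561 and 2855 with pentamidine (0.53), and 231274_s_at read 1054 and 1174 against 1548 and 1616 (0.50). 225860_at read 1762 and 2156 against 2526 and 2886 (0.47), and 238604_at read 1806 and 1809 against 2441 and 2538 (0.46). These differences were small, and separate groups were a condition of being named here. For 225860_at the DMSO arrays themselves differed by 0.29 on the log2 scale. None of the 16 named extremes passed limma's threshold, with adjusted p from 0.536 to 0.983. Of the 17 members at 1.5-fold or more in either direction, 14 had a DMSO mean under 2000.

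**Figure D3:**
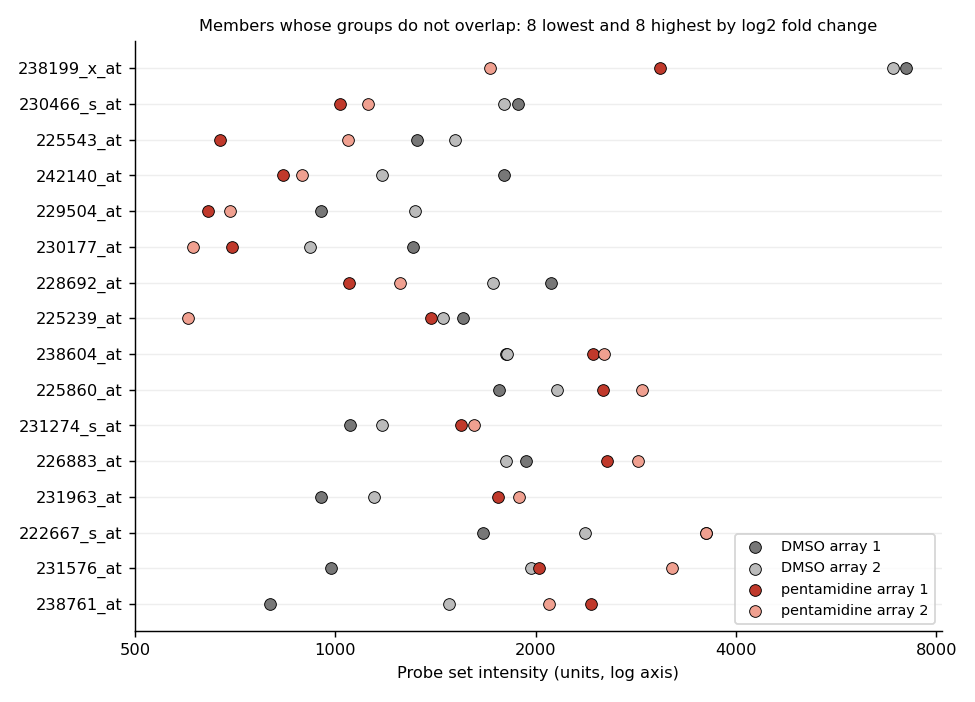
Intensities (log scale) on the 4 arrays of the second type for the 8 lowest and 8 highest members by log2 difference among those with groups that do not overlap. The lead _x_at set, at the top, has the widest gap, from 6895 on the lower DMSO array to 3073 on the higher pentamidine array.

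The scatter was smaller in brighter bands. Of members from 1000 to 2000, 14 (7.37%) were at least 1.5-fold from DMSO, against 2 (1.69%) from 2000 to 5000 and 1 (1.67%) at 5000 or more. The median absolute difference between the DMSO arrays was 0.24, 0.18 and 0.13 in these bands. With the variance trend the 95% interval of the pentamidine difference lay wholly inside 1.5-fold for 23.2%, 54.2% and 83.3% of members. Over all 368 it lay inside 1.5-fold for 158 (42.9%) and inside 2-fold for 343 (93.2%). With the constant prior variance, whose intervals are those given for single members unless the trend is named, it lay inside 1.5-fold for 0 members and inside 2-fold for 95 (25.8%). How small a change the arrays could bound thus depended on the variance model.

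The brightest members moved little. 200017_at, the brightest, read 67317 and 65109 with DMSO and 69970 and 67787 with pentamidine (0.06). 200031_s_at read 66896 and 55958 against 81262 and 65381 (0.25), and 222976_s_at read 47174 and 45349 against 54842 and 53714 (0.23). The last of these had separate groups, while the pairs of 200031_s_at overlapped. 200024_at read 37381 and 41103 against 41066 and 43064 (0.10). The next 4 by level, 228222_at, 228498_at, 224691_at and 224603_at, had differences of -0.10, 0.21, 0.12 and -0.00. Bright control probe sets also read higher with pentamidine, 1.10 to 1.24-fold for ACTB and 1.01 to 1.20-fold for GAPDH. On the first type these ranges were 1.13 to 1.22 and 1.10 to 1.18. The GAPDH 3′ set overlapped DMSO on both types, and the others lay above DMSO on both pentamidine arrays. The part of this shift in the brightest members was not tested.

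Of all members, 3 were also on the first array type, whose arrays did not choose them, and all 3 were among the brightest. 200017_at read 15921 and 14810 with DMSO and 17962 and 16184 with pentamidine there, a difference of 0.15 (95% interval -0.28 to 0.58, adjusted p in limma 0.929). 200031_s_at read 15679 and 15492 against 19107 and 16510, a difference of 0.19 (interval -0.25 to 0.63, adjusted p in limma 0.929). Both had a positive difference on each array type without passing the test on either. The groups of 200031_s_at overlapped on the second type. 200024_at read 10339 and 9750 against 10347 and 9734, a difference of -0.00. The sign for 200017_at did not survive scaling: it was -0.05 on the second type with quantile normalization or median centring, and -0.03 on the first with quantile normalization.

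Several members differed more within the DMSO pair than between treatments. The DMSO arrays were at least 1.5-fold apart in 42 members (11.4%), with array 1 the lower in 23 and the higher in 19. The pentamidine arrays were so in 24 (6.52%). These shares were 46.2% and 47.4% over all probe sets kept, and 9.14% and 5.18% over bright ones with 1 symbol. 228196_s_at read 460 and 1606 with DMSO and 1368 and 1104 with pentamidine, and 240277_at read 1005 and 2663 against 1692 and 1332. 228315_at read 2194 and 5077 against 4296 and 3753, and 228478_at read 828 and 1878 against 1458 and 1422. DMSO array 1 was the low one in all 4, and in each the pentamidine values fell between the DMSO values. The log2 distance within the DMSO pair was 1.77, 1.39, 1.20 and 1.17 in that order.

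**Figure D4:**
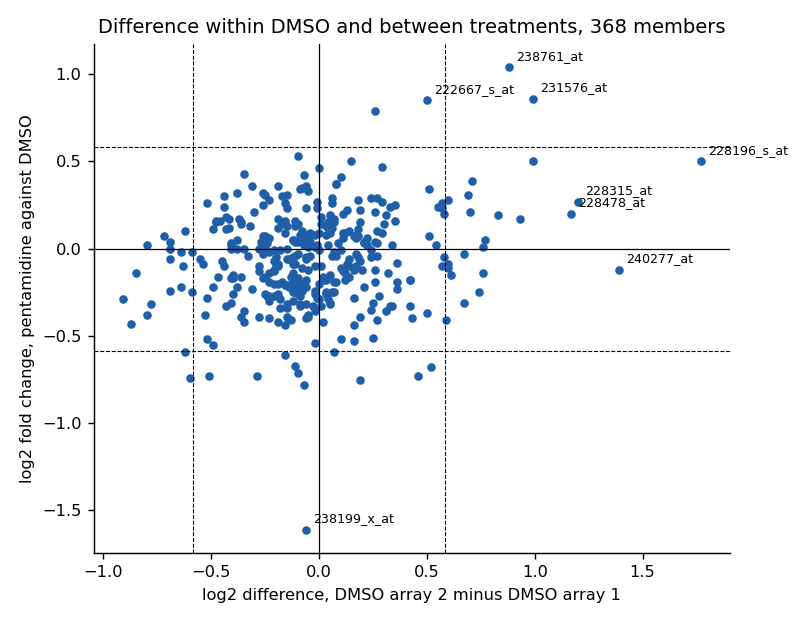
The log2 difference between pentamidine and DMSO (vertical axis) against the log2 difference between DMSO array 2 and DMSO array 1 (horizontal axis) for the 368 members. Both axes use the DMSO arrays, and the 4 members with the widest DMSO pairs lie to the right at 1.17 to 1.77.

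Over the whole set, DMSO array 1 held the highest value in 141 members and the lowest in 81. Pentamidine array 1 held the lowest in 121 and the highest in 59. The order was the same in the 2876 bright probe sets with 1 symbol. There DMSO array 1 was highest in 930 and lowest in 699, and pentamidine array 1 lowest in 929 and highest in 449. Across the members, log2 intensities correlated at 0.946 between the DMSO arrays, 0.966 between the pentamidine arrays and at lowest 0.938 between DMSO array 1 and pentamidine array 1. These are across probe sets, which are not replicates, and the arrays share the scaling. By this measure DMSO array 2 was nearer to pentamidine array 1 (0.96) and pentamidine array 2 (0.954) than to DMSO array 1. By the median absolute log2 difference it was nearer to DMSO array 1 (0.20 against 0.22 for either pentamidine array). The order thus depended on the measure.

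Split by suffix, the 21 _x_at members had a median of -0.19, with 14 below 0. The groups did not overlap in 12 of them (57.1%), 9 below and 3 above, beside 34.2% of all probe sets kept. In bright _x_at sets with 1 symbol they did not overlap in 77 of 182 (42.3%), 38 below and 39 above. Medians were -0.05 for _at members and 0.02 for _s_at members. Those _x_at sets with 1 symbol had a median of 0.02, with 81 below 0. The 32 bright unnamed _x_at sets of the first type also had a median of 0.02. Groups did not overlap in 11 of these 32 (34.4%), 3 below and 8 above, beside 35.2% of all kept on that type. No test was made of this split, and the _x_at members include the lead one.

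Some members carried consecutive identifier numbers. There were 24 such pairs, covering 46 members, and the median absolute difference in log2 change within a pair was 0.12, against 0.25 over all pairs of members. The signs of the unrounded differences were the same in 18 of the 24. The least alike pair, 225404_at and 225405_at, had 0.33 and -0.42. Among probe sets with 1 symbol and neighbouring numbers, 7.32% of pairs shared a symbol, and 12.2% of bright ones. Neighbouring numbers with a symbol thus mostly did not stand for the same gene. Whether the members' pairs did is not known here.

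The same rule applied to the first array type gave 203 bright unnamed probe sets of 1923 without symbol (10.6%). They varied less, with an SD of log2 differences of 0.17 against 0.28 for the members. Bright probe sets with 1 symbol also varied less on the first type than on the second (0.16 against 0.26). So did all probe sets kept (0.34 against 0.83). The median of the 203 was 0.01 and their range -0.56 to 0.44. None of the 203 reached 1.5-fold, where 8.75% of all probe sets kept on that type did, 6.01% above and 2.75% below. Of the bright ones with 1 symbol, 13 (0.408%) did. Groups of the 203 did not overlap in 84 (41.4%), beside 35.2% of all kept and 38.7% of bright ones with 1 symbol. Of the 84, 44 lay above and 40 below, where 19.4% and 15.7% of all kept did. The shares of bright ones with 1 symbol were 18.4% above and 20.4% below. limma called 0 (0.0% of all kept). Its unadjusted p was under 0.05 for 1, beside 4.8% of all kept and 0.471% of bright ones with 1 symbol. With the variance trend it also called 0, with 16 (7.88%) at an unadjusted p under 0.05. Beside this stood 5.13% of all kept and 7.06% of bright ones with 1 symbol.

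Among those with groups that do not overlap, the lowest was 216384_x_at, which read 2396 and 2330 with DMSO and 1586 and 1599 with pentamidine (-0.56). It was followed by 218019_s_at at -0.48 and 209120_at at -0.39. The highest with separate groups were 201831_s_at at 0.39, 214352_s_at at 0.36 and 211972_x_at at 0.30. For all 6 the adjusted p in limma was 0.926, so no unnamed bright probe set passed the test on either array type without the variance trend.

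**Figure D5:**
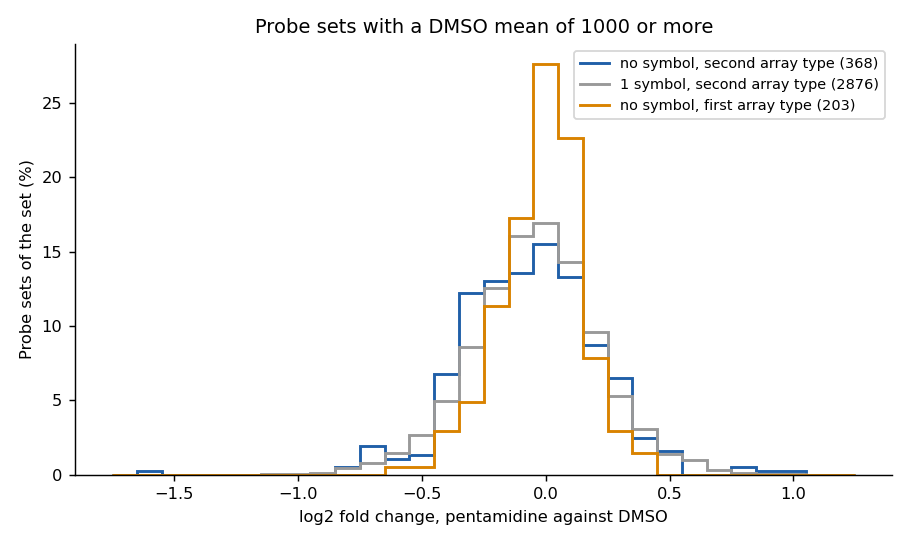
Distribution of log2 differences (pentamidine minus DMSO, horizontal axis) as a percentage of each set (vertical axis), for the bright unnamed probe sets of each array type and for bright probe sets with 1 symbol on the second. The members have a median of -0.05 and the first-type set, the narrowest of them with an SD of 0.17, one of 0.01.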

How the data were processed

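Total RNA of 786-O cells was labelled with biotin and hybridised to arrays of 2 types, 8 arrays in all. The authors deposited 1 linear intensity for every probe set and array. The submitters' processing notes name Affymetrix Expression Console. Its version and how it summarised probes are not given in the sources used. For an array, precision is limited by the number of arrays, 2 per group. Affymetrix controls were dropped and 16 was added to each intensity before the log2. Probe sets with a mean log2 value below the 30th percentile were dropped too, leaving 15804 on the second type and 15550 on the first. All 368 members were kept. The 2 treatments were compared separately on each type with limma 3.58.1 (lmFit, eBayes) under R 4.3.3, with Benjamini-Hochberg adjustment over all probe sets kept and a threshold of 0.05. Intervals are limma's 95% intervals, and p-values weigh a difference against the spread between these arrays, pooled in part over all probe sets kept. With the constant prior variance the pooled part weighed heavily. For 238604_at the pairs differed by 0.00 and 0.06 on the log2 scale, while the standard error was 0.289. The smallest 2-sided exact p for 2 arrays against 2 is 0.333, so no exact test was made.

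Named probe sets were the lead _x_at set, which is 238199_x_at, the 8 brightest members, the 8 highest and 8 lowest by log2 difference with separate groups, 3 on either side of the minimum, members called with a variance trend, members shared with the first type, and the 4 with the widest DMSO pairs. On the first type they were the 3 highest and 3 lowest with separate groups. The members and lists were chosen with earlier results of these data known. Same-numbered arrays did not deviate together (correlation 0.013 over all probe sets kept on the second type and 0.004 on the first). The script was tested on simulated data. Alternatives covered scaling, offset, filter, prior variance, the member minimum, a replicate block and leaving out each array.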

Additional observations from a re-analysis of the deposited data

How the results depend on the processing

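With the constant prior variance limma called 0 members under each scaling, offset, filter and array left out. With the variance trend limma called 1, also with a robust prior, with the filter on the linear mean and with the 50th percentile filter, and 3 with a replicate block. Under the trend limma called 9 without DMSO array 2, 0 without pentamidine array 2 and 1 without either other array, where the lone array of a group is assumed to vary like the other group's. For the replicate block and with an array left out, the calls over all probe sets kept are not given here. Those counts of calls are therefore no result about the members. Combinations with the trend, the linear-mean filter and members chosen on 1 DMSO array were added after seeing the data. The replicate numbers were not taken to pair the arrays, though the lack of a shared deviation cannot settle this. With the replicate block alone the lead _x_at set had a difference of -1.61 (adjusted p in limma 0.710). Its difference was -1.58 and -1.64 without DMSO array 1 or 2, -2.03 and -1.19 without pentamidine array 1 or 2, and -1.61 in every fit with the trend on all arrays.

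The members' median was -0.16 with median centring, 0.01 with members chosen on the pentamidine arrays, -0.01 with members chosen on DMSO array 1 and compared with array 2, and -0.09 to -0.01 with an array left out. The share with separate groups was 67.9% to 78.0% with an array left out, where fewer arrays must be ordered. The same share of all probe sets kept is not given here, so this range is no result about the members. The share at 1.5-fold or more was 9.26% from a minimum of 500, 1.69% from 2000, 8.65% with members chosen on DMSO array 2 and compared with array 1, and 5.43% to 8.70% with an array left out. The cause was not tested. The planned split of unlisted from listed probe sets without symbol was not run, since none is listed.

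Of 546 values of named probe sets other than the lead one, with 1 choice changed at a time, 527 kept their direction and side of the threshold and 19 changed sign. Quantile normalization gave -0.05 for 200017_at on the second type and -0.03 on the first. Median centring gave -0.05 for 200017_at, -0.00 for 200024_at and -0.05 for 226795_at. With 1 array left out, values ran from -0.14 to 0.14 for 224603_at, -0.46 to 0.15 for 230748_at, -0.41 to 0.28 for 228661_s_at, -0.70 to 0.11 for 239376_at and -0.97 to 0.08 for 229704_at. They ran from -0.05 to 0.16 for 226795_at, -0.38 to 1.39 for 228196_s_at, -0.82 to 0.57 for 240277_at, -0.34 to 0.87 for 228315_at, -0.38 to 0.79 for 228478_at and -0.04 to 0.04 for 200024_at on the first type.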
